A study of Mus musculus with 12 samples.

Results

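The collagen genes of the mouse liver were compared between mice with *Yap1* removed by a liver epithelial Cre and wild-type mice. The members were all rows of the deposited expression table whose gene name begins with Col, a number, the letter a and a further number: 45 of 25676 rows. Of these, 44 are collagen genes, and the remaining row, *Col4a3bp*, encodes a ceramide transfer protein and is a collagen in name only. The 44 genes were sorted by the known assembly of their proteins into 11 fibrillar, 6 type IV (basement membrane), 3 network-forming, 6 type VI (beaded filament), 1 anchoring fibril, 9 fibril-associated (FACIT), 2 multiplexin, 4 transmembrane and 2 other collagens.

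RNA was sequenced from whole livers of 12 mice on a C57BL/6 background at 3 to 4 months of age, 1 library per mouse. There were 6 wild-type mice (WT) and 6 Foxa3-Cre YAP1 knockout mice (KO), with 3 males and 3 females of each genotype, hence 4 groups of 3. The *Foxa3* promoter drives Cre in the embryonic gut endoderm, which gives rise to hepatocytes and bile duct cells, so that Cre is not expected in the mesenchymal cells that make most liver collagen. The labels do not say whether the WT mice carried a floxed allele or Cre, nor whether they were littermates of the KO mice, and neither genotype received a treatment that the labels name.

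Collagens are proteins of the extracellular matrix in which 3 chains wind around each other into a triple helix. Fibrillar collagens form the tensile fibres of the liver capsule and portal tracts, and their accumulation defines fibrosis. Type IV chains form the sheets of basement membranes, type VI chains form beaded microfilaments around cells, FACIT collagens bind along fibrils, multiplexins lie at the outer face of basement membranes, and transmembrane collagens sit in the plasma membrane. In healthy liver the main source of fibrillar collagen is the hepatic stellate cell together with fibroblasts of the portal tracts, whereas *Col18a1*, the source of the fragment endostatin, is also made by hepatocytes.

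Values are TPM, a transcript abundance divided by transcript length and scaled to a sum of 1000000 in each library, so that levels are relative within a library and not amounts of RNA. The low values were whole multiples of what 1 read was worth, and whole reads were recovered for 17328 of the 17332 genes above 0 in any library (99.98%, within 0.01 of a read) and for all 44 members above 0. The recovered reads came to between 16685050 and 23789505 per library, a lower bound on depth. For each gene they are the smallest whole numbers that fit its values, so every read count given below is a minimum. A gene above 0 in 1 library alone always gives 1 read. *Yap1*, the gene removed, was at 23.0 to 34.9 TPM in the WT livers and at 0.994 to 3.11 TPM in the KO livers (exact permutation test within sex, p = 0.005, the smallest possible). Genes with a mean of at least 0.5 TPM over the 12 libraries were tested, which left 12278 genes, among them 22 collagens and *Col4a3bp*. Differences are KO minus WT on the log2(TPM + 1) scale with their standard error, which understates changes of low genes, and p-values are from limma, adjusted over the 12278 genes after Benjamini and Hochberg, with a threshold of 0.05.

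A shift of the whole transcriptome touched every level difference. Over all tested genes the median difference between KO and WT was 0.35, and after a rescaling that divides each library by its median ratio to the other libraries it was -0.03. The rescaled difference of a gene is therefore given beside the deposited one where it matters. In whole liver, more cells of a type and more RNA per cell cannot be told apart.

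The 250 bases upstream of the annotated start are printed for 4 members chosen to show a spread of responses: a fibrillar collagen that rose strongly (*Col3a1*), one that rose moderately (*Col5a1*), a type VI gene that was nearly silent in WT (*Col6a5*) and a fibrillar gene that did not rise (*Col27a1*). The sequences are from RefSeq with the build GRCm38.p6, each 5′ to 3′ on the gene's own strand, and capitals mark matches to the searched motifs.
Col3a1, chr1:45311288-45311537, plus strand: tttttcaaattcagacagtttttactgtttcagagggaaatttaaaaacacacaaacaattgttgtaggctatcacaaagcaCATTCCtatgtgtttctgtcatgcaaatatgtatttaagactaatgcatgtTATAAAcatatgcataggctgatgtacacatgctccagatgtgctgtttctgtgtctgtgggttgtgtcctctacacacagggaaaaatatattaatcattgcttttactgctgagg
Col5a1, chr2:27886175-27886424, plus strand: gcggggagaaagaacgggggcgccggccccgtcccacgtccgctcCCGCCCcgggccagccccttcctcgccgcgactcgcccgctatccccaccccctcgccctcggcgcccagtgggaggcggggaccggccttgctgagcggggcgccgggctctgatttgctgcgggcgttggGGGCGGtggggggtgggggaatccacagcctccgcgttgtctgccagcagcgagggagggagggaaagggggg
Col6a5, chr9:105960644-105960893, minus strand: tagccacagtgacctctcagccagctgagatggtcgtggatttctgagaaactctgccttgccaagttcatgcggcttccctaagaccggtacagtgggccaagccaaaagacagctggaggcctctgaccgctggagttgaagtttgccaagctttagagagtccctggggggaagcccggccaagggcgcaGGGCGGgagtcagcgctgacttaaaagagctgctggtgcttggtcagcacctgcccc
Col27a1, chr4:63215162-63215411, plus strand: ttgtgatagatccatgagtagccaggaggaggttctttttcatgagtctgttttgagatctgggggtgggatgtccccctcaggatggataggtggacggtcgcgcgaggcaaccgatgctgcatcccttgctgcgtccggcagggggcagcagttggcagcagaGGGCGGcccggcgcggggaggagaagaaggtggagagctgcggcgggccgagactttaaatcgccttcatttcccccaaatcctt

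Of the 22 tested collagens, 18 had a RefSeq window, and 2 of these had an alternative start with a window of its own, giving 20 windows. *Col1a1*, *Col5a2*, *Col12a1* and *Col14a1* had none. The letters searched on both strands were CCAAT (the CCAAT box), GGGCGG (the GC box), TATAAA (the TATA box), GGAATG (the core bound by TEAD factors, the partners of YAP1) and TGANTCA (the AP-1 site). No motif contains another. The TEAD letters were found in 4 of the 20 windows of tested collagens, beside 10.8% of 12405 windows of all tested genes. These windows belong to *Col3a1* and *Col6a2*, which rose in KO, *Col18a1*, whose rise was lost by rescaling, and *Col20a1*, which fell. *Col6a2* and *Col18a1* each hold the letters in only 1 of 2 windows. The *Col3a1* window holds the TEAD letters on the reverse strand, at position -168 from the start, as well as a TATA box at position -117. The GC box stood in 12 of the 20 windows beside 56.0% of the windows of tested genes, the CCAAT box in 7 beside 35.3%, the TATA box in 2 beside 7.0% and the AP-1 letters in 1 beside 4.74%. A match is a description of the letters and not a binding site.

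Collagen transcripts were more abundant in the KO livers in most classes. Of the 22 tested collagens, 19 rose in KO, 1 fell (*Col20a1*) and 2 were not called (*Col27a1* and *Col13a1*). Across all tested genes 50.1% rose and 4.82% fell. On the rescaled values 17 collagens rose, where 21.3% of all genes did, and 2 fell (*Col27a1* and *Col20a1*), where 18% of all genes did. *Col14a1* and *Col18a1* were the genes whose rise was lost by rescaling. *Col8a1*, *Col6a5* and *Col12a1* passed the filter only through their KO values, and *Col20a1* only through its WT values. Among the 19 tested collagens with a WT mean of at least 0.5 TPM, 16 rose, beside 48.1% of the genes chosen in the same way. Among the 21 with a KO mean of at least 0.5 TPM, 0 fell in limma at an adjusted p under 0.05, beside 4.24% of the genes chosen in the same way. *Col27a1* came nearest to a fall (limma, adjusted p = 0.060). All 6 KO libraries lay above all 6 WT libraries in 15 of the 22, beside 28.7% of all tested genes, and all 6 lay below in 0, beside 1.88%. The median difference was 1.40 over the 22 collagens (1.04 rescaled), and this median and those of the classes include the 4 genes that passed through 1 genotype only.

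**Figure D1:**
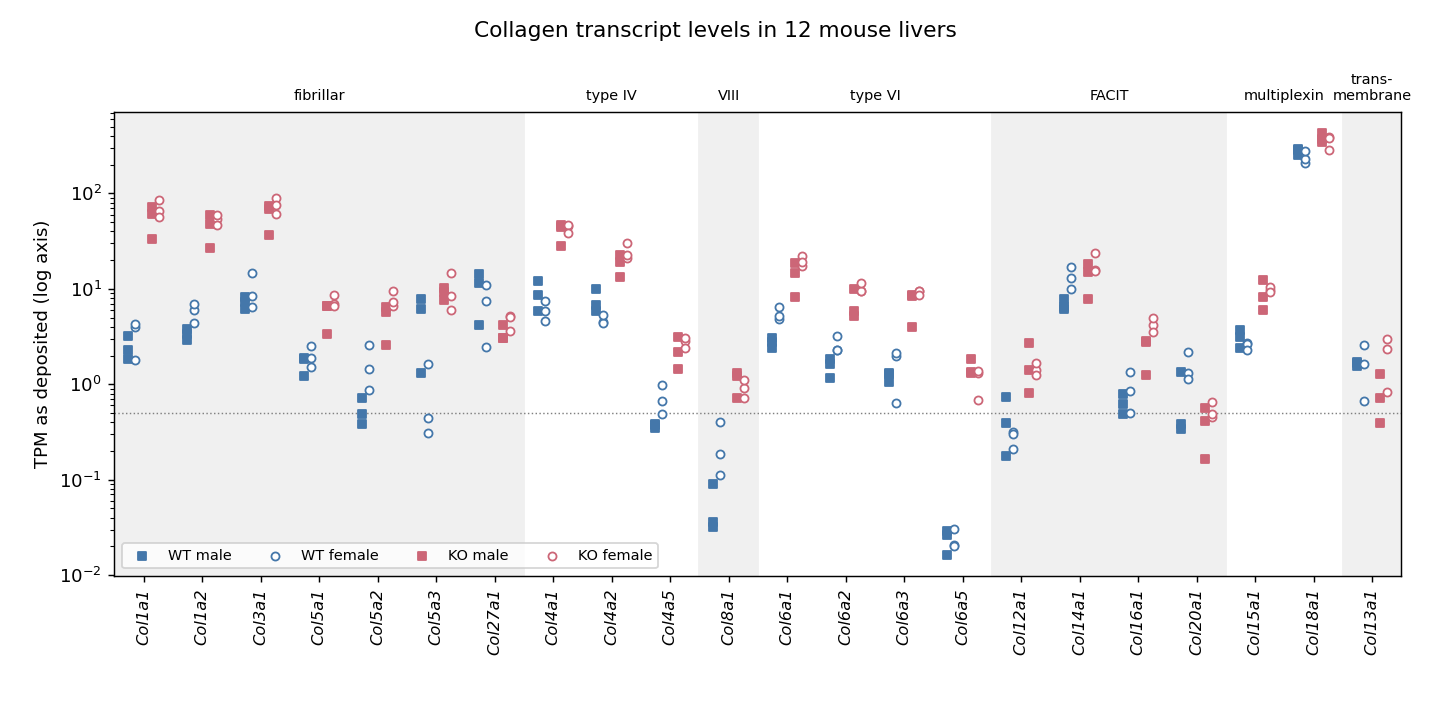
TPM as deposited (log axis) of the 22 tested collagen genes in each of the 12 livers, with WT in blue and KO in red, squares for males and circles for females, and the filter of 0.5 TPM as a dotted line. KO values lie above all WT values in 15 of the genes, *Col18a1* stands above all others in both genotypes, *Col27a1* and *Col20a1* have lower KO means, and the KO values of *Col13a1* overlap those of WT.

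Summed over the 44 genes, collagens made up 328 ± 38.2 TPM (SD, n = 6) in WT and 707 ± 76.1 TPM (SD, n = 6) in KO. *Col18a1* alone provided 78.3% ± 2.64 of the WT sum and 52.2% ± 8.21 of the KO sum (SD, n = 6 each). The fibrillar share of collagen transcripts was between 5.65% and 10.8% in the WT livers and between 20.3% and 35.6% in the KO livers, so the ranges did not meet. With *Col18a1* left out, the fibrillar share was 43.0% ± 7.69 in WT and 60.0% ± 2.07 in KO. The 5 most abundant collagens of the WT liver were, in order, *Col18a1*, *Col14a1*, *Col3a1*, *Col27a1* and *Col4a1*, and those of the KO liver were *Col18a1*, *Col3a1*, *Col1a1*, *Col1a2* and *Col4a1*. *Col14a1*, *Col3a1*, *Col27a1* and *Col4a1* in WT, with means of 10.1, 8.49, 8.46 and 7.41 TPM, were closer to each other than their SDs of 2.71 to 4.59. The WT order also differed by sex. *Col14a1* averaged 13.4 TPM in WT females but 6.77 TPM in WT males, there below *Col27a1* (9.98), *Col4a1* (8.88), *Col4a2* (7.57) and *Col3a1* (7.15).

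**Figure D2:**
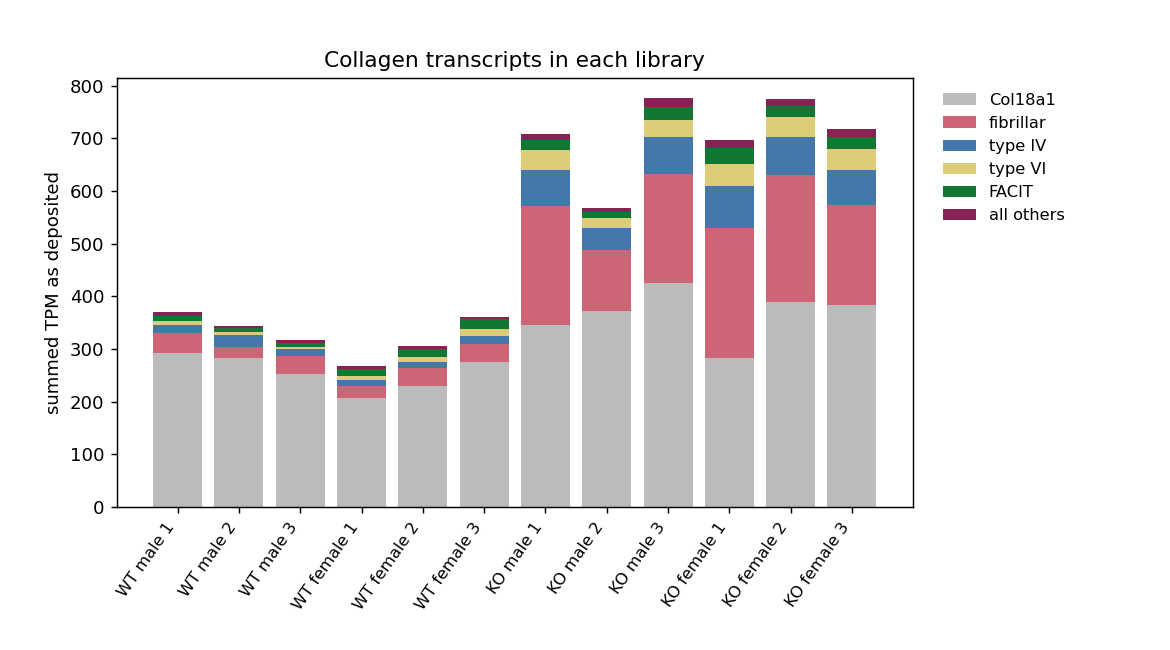
Summed TPM of the collagen genes in each of the 12 livers, stacked by class, with *Col18a1* drawn apart from the other collagens. The total ranges from 268 to 370 TPM in WT and from 568 to 776 TPM in KO, and the fibrillar part widens most.

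On the log2(TPM + 1) scale the largest differences were those of the fibrillar genes *Col1a1*, *Col1a2* and *Col3a1*. As a ratio of KO to WT means, *Col6a5* (54.8) and *Col28a1* (27.8, below the filter), both scarce in WT, exceeded *Col1a1* (21.4). Of the 11 fibrillar genes, 7 were tested, 6 rose and none fell, beside 50.1% and 4.82% of all tested genes. After rescaling 6 rose and 1 fell, beside 21.3% and 18%. The median fibrillar difference was 1.83 (1.53 rescaled). *Col1a1* (ENSMUSG00000001506, chr11:94936224-94953042) and *Col1a2* (ENSMUSG00000029661, chr6:4504814-4541544) encode the 2 chains of type I collagen, the main collagen of scar tissue. *Col1a1* was at 3.18, 1.85 and 2.28 TPM in the WT males and 1.82, 3.96 and 4.29 TPM in the WT females, against 71.3, 33.5 and 60.5 TPM in the KO males and 65.7, 85.0 and 55.9 TPM in the KO females. Every KO liver lay far above every WT liver, and the difference was 4.01 ± 0.21 (limma, adjusted p = 6.7e-09). *Col1a2* stood at 3.83, 3.34 and 2.88 TPM in WT males, 4.42, 5.94 and 6.95 TPM in WT females, 59.3, 26.6 and 47.8 TPM in KO males and 53.6, 58.7 and 46.5 TPM in KO females. Its groups did not overlap either, and its difference was 3.16 ± 0.18 (limma, adjusted p = 1.45e-08).

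*Col3a1* (ENSMUSG00000026043, chr1:45311538-45349706) encodes type III collagen, which forms fine reticular fibres together with type I. In WT it was at 8.13, 6.12 and 7.21 TPM in males and 6.38, 8.32 and 14.8 TPM in females. In KO it was at 68.4, 36.6 and 73.4 TPM in males and 89.9, 74.8 and 61.3 TPM in females. The WT female replicate 3 stood above the other WT livers and still below every KO liver, and the difference was 2.86 ± 0.20 (limma, adjusted p = 1.4e-07). *Col3a1* thus began from a higher WT level than *Col1a1* and *Col1a2* and reached a similar KO level.

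Type V collagen, which nucleates type I fibrils and limits their width, rose in all 3 of its genes over both sexes, *Col5a3* not being called within males. *Col5a1* (chr2:27886425-28039514) ranged from 1.22 to 2.50 TPM in WT and from 3.33 to 8.63 TPM in KO, a difference of 1.38 ± 0.16. *Col5a2* (chr1:45374321-45503282) ranged from 0.385 to 2.56 TPM in WT and from 2.59 to 9.39 TPM in KO, a difference of 1.83 ± 0.20, and the 2 ranges nearly met. *Col5a3* (chr9:20770050-20815067) differed in pattern: it was at 6.15, 1.32 and 7.88 TPM in WT males but 0.444, 0.308 and 1.65 TPM in WT females. In KO it was at 10.3, 9.21 and 7.63 TPM in males and 14.6, 5.95 and 8.33 TPM in females. WT male replicates 1 and 3 lay within the KO range, the third WT male and all WT females lay below it, and over both sexes the difference was 1.74 ± 0.38 (limma, adjusted p = 0.0019).

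*Col27a1* (ENSMUSG00000045672, chr4:63214004-63334991), a fibrillar collagen best known from cartilage, was the exception of its class. It was at 14.3, 4.14 and 11.5 TPM in WT males, 7.40, 11 and 2.48 TPM in WT females, 3.07, 3.05 and 4.18 TPM in KO males and 5.16, 3.62 and 5.11 TPM in KO females. The KO values were narrowly spread and lay in the lower part of the wide WT range. Its difference of -0.76 ± 0.32 missed the threshold on the deposited scale (limma, adjusted p = 0.060) and passed it after rescaling at -1.13 (limma, adjusted p = 0.013). The call also depended on single livers, since it passed without WT male replicate 2 (-0.92, limma, adjusted p = 0.027) or without WT female replicate 3 (-1.03, limma, adjusted p = 0.0047). It passed as well with both WT female replicate 3 and KO female replicate 1 left out (-1.07, limma, adjusted p = 0.0068). These mice are called the early animal number series here from their low numbers in the titles. The labels name no such series. *Col27a1* made up 27.3% ± 11.3 of the fibrillar transcripts in WT (SD, n = 6, from 6.99% to 37.0%) and 2.05% ± 0.552 in KO. The *Col27a1* upstream sequence printed above belongs to the RefSeq start, and the GENCODE gene begins upstream of it.

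The other 4 fibrillar genes, which belong to types II, XI and XXIV of cartilage and bone, were below the filter. *Col11a2* was highest among them, at 0.146 to 0.781 TPM in WT and 0.164 to 0.607 TPM in KO. *Col2a1*, *Col11a1* and *Col24a1* stayed at or below 0.102 TPM in every liver. *Col2a1* had no read in any WT liver and 6 reads in the 6 KO livers together.

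Type IV collagen of basement membranes rose in all 3 tested genes, also after rescaling, beside 50.1% of all tested genes (21.3% rescaled). The median difference was 1.66 (1.24 rescaled). *Col4a1* (ENSMUSG00000031502, chr8:11198423-11312826) and *Col4a2* (ENSMUSG00000031503, chr8:11312805-11449287) encode the chains of the common basement membrane and are transcribed in opposite directions from starts 21 bases apart. *Col4a1* was at 8.71, 12.1 and 5.82 TPM in WT males, 4.60, 5.79 and 7.43 TPM in WT females, 44.8, 28.3 and 46.1 TPM in KO males and 45, 46.4 and 38.6 TPM in KO females. KO male replicate 2 lay below the other 5 KO livers, which were close together, and the difference was 2.38 ± 0.19 (limma, adjusted p = 4.8e-07). *Col4a2* was at 6.76, 10.03 and 5.92 TPM in WT males, 4.48, 4.40 and 5.29 TPM in WT females, 19.2, 13.2 and 22.6 TPM in KO males and 30.4, 21 and 22.8 TPM in KO females. Its groups did not overlap, and its difference was 1.66 ± 0.21 (limma, adjusted p = 1.9e-05). The annotated first exons of this pair overlap, and whether the counting used strand is not stated, so that reads of the shared stretch cannot be told apart.

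*Col4a5* (ENSMUSG00000031274, chrX:141475385-141689234), on the X chromosome, encodes a chain of the specialised basement membranes of kidney and lung. Its level was 0.377, 0.386 and 0.351 TPM in WT males and 0.490, 0.664 and 0.989 TPM in WT females. In KO it was 3.09, 1.44 and 2.19 TPM in males and 2.85, 3.06 and 2.38 TPM in females, so that all KO livers lay higher (1.18 ± 0.13, limma, adjusted p = 8.7e-06). The other 3 type IV genes were below the filter. *Col4a3* spanned 0.0381 to 1.18 TPM in WT and 0.213 to 0.895 TPM in KO, *Col4a4* reached at most 0.584 TPM, and *Col4a6* at most 0.359 TPM.

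Among the 3 network-forming collagens, only *Col8a1* was tested, and it rose. It passed the filter only through its KO values, so the rise and its p-value carry the effect of that choice. *Col8a1* (ENSMUSG00000068196, chr16:57624258-57754737) encodes a chain of type VIII collagen, found beneath vascular endothelium. It was at 0.0357, 0.0319 and 0.0899 TPM in WT males and 0.399, 0.185 and 0.111 TPM in WT females, which rests on 49 recovered reads in all. In KO it was at 1.21, 0.713 and 1.33 TPM in males and 0.715, 0.914 and 1.10 TPM in females, on 298 reads. The groups did not overlap, and the difference was 0.80 ± 0.12 (limma, adjusted p = 0.00011). *Col8a2* was at 0.108 to 0.301 TPM in WT and 0.116 to 0.459 TPM in KO, and *Col10a1*, a cartilage collagen, had 8 reads in WT and 4 in KO.

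Type VI collagen rose in all 4 tested genes, also after rescaling, beside 50.1% of all tested genes (21.3% rescaled). The median difference was 1.71 (1.34 rescaled). *Col6a1* (ENSMUSG00000001119, chr10:76708792-76726168), *Col6a2* (ENSMUSG00000020241, chr10:76595762-76623630) and *Col6a3* (ENSMUSG00000048126, chr1:90765923-90843971) encode the chains of the common heterotrimer. *Col6a1* was at 3.05, 2.80 and 2.39 TPM in WT males, 4.85, 5.18 and 6.37 TPM in WT females, 18.4, 8.20 and 14.6 TPM in KO males and 22.1, 17.5 and 19.1 TPM in KO females. *Col6a2* was at 1.82, 1.64 and 1.16 TPM in WT males, 2.28, 2.28 and 3.23 TPM in WT females, 10.02, 5.21 and 5.84 TPM in KO males and 9.47, 9.46 and 11.6 TPM in KO females. *Col6a3* was at 1.33, 1.29 and 1.05 TPM in WT males, 0.643, 1.96 and 2.11 TPM in WT females, 8.33, 4.01 and 8.71 TPM in KO males and 9.44, 9.60 and 8.53 TPM in KO females. In each of these 3 genes every KO liver lay above every WT liver, and KO male replicate 2 was the lowest KO liver. The differences were 1.79 ± 0.16 for *Col6a1*, 1.63 ± 0.15 for *Col6a2* and 1.92 ± 0.19 for *Col6a3* (limma, adjusted p at most 3.1e-06).

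*Col6a5* (ENSMUSG00000091345, chr9:105856078-105960643) encodes a further type VI chain that is thought to take the place of the *Col6a3* chain. It was nearly silent in the WT livers, at 0.0164 to 0.0305 TPM, with 2 to 4 reads per library and 16 in all. In KO it was at 1.31, 1.33 and 1.85 TPM in males and 1.32, 0.679 and 1.38 TPM in females, on 61 to 150 reads per library and 720 in all. *Col6a5* was likewise tested only because of its KO values, on which its place among the risen type VI genes and its p-value therefore rest. The KO mean was 54.8 times the WT mean, and the difference on the log2(TPM + 1) scale was 1.16 ± 0.12 (limma, adjusted p = 3.5e-06). *Col6a6*, another chain of this kind, was below the filter at 0.0106 to 0.0852 TPM in WT and 0.234 to 0.663 TPM in KO, with no overlap. *Col6a4* was above 0 in 1 library alone, a WT female at 0.0255 TPM, so its true read count is unknown.

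**Figure D3:**
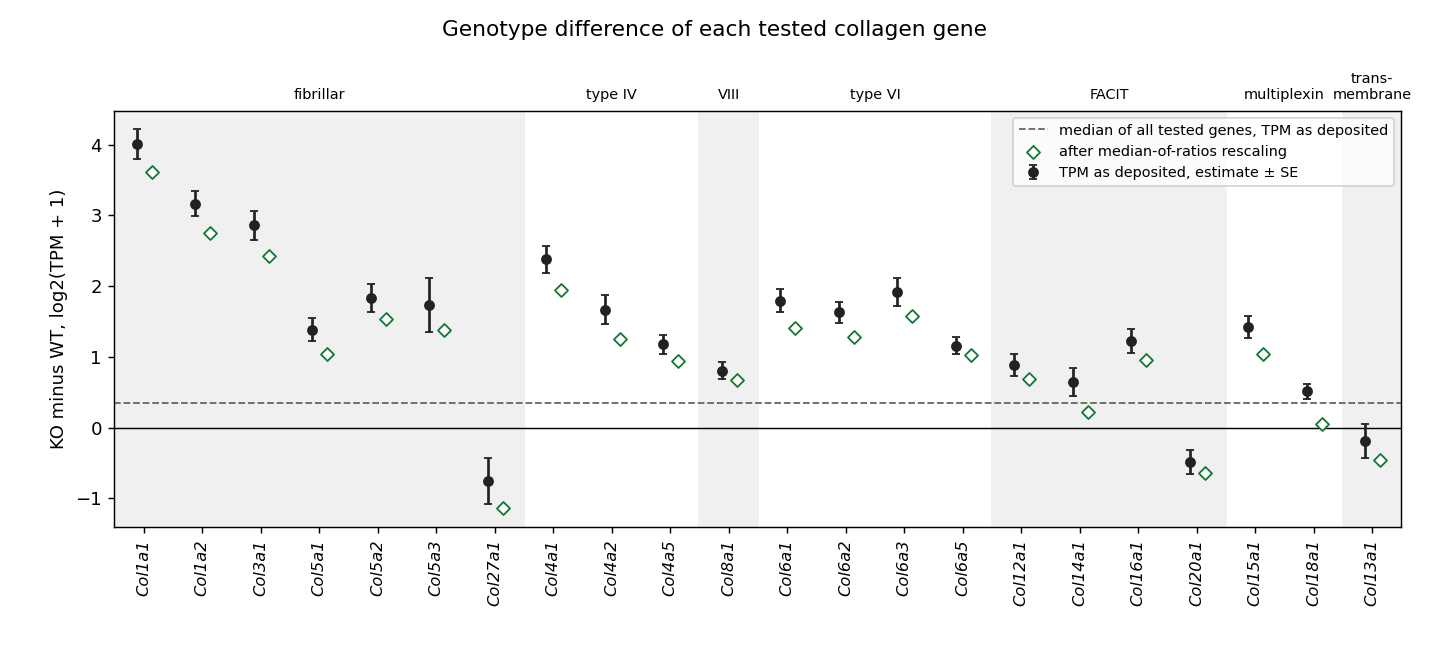
KO minus WT difference on the log2(TPM + 1) scale for each of the 22 tested collagens, as estimate ± SE on the deposited values (black) and as rescaled estimate (green), with the median of all tested genes as a dashed line. *Col1a1*, *Col1a2* and *Col3a1* lie highest at 4.01, 3.16 and 2.86, and *Col18a1* and *Col14a1* lie near 0 once rescaled.

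FACIT collagens were mixed. Of the 9, 4 were tested, 3 rose and 1 fell, beside 50.1% and 4.82% of all tested genes. After rescaling 2 rose and 1 fell, beside 21.3% and 18%. The median difference was 0.76 (0.45 rescaled). *Col14a1* (ENSMUSG00000022371, chr15:55307750-55520803), which binds to fibrils of dense connective tissue, was at 7.75, 6.45 and 6.10 TPM in WT males, 9.97, 13.1 and 17.1 TPM in WT females, 14.9, 7.87 and 18.3 TPM in KO males and 23.6, 15.8 and 15.5 TPM in KO females. The groups overlapped, and the difference of 0.64 ± 0.20 (limma, adjusted p = 0.015) shrank to 0.22 and lost its call after rescaling (limma, adjusted p = 0.35). *Col16a1* (ENSMUSG00000040690, chr4:130047840-130099283) was at 0.787, 0.483 and 0.619 TPM in WT males, 0.506, 0.848 and 1.35 TPM in WT females, 2.79, 1.25 and 2.85 TPM in KO males and 4.13, 3.54 and 4.97 TPM in KO females. It rose by 1.22 ± 0.17 (limma, adjusted p = 5.9e-05), although KO male replicate 2 lay within the WT range. *Col12a1* (ENSMUSG00000032332, chr9:79598991-79718831), which binds type I fibrils in tendon and ligament, was at 0.743, 0.389 and 0.176 TPM in WT males, 0.319, 0.210 and 0.298 TPM in WT females, 1.41, 0.819 and 2.69 TPM in KO males and 1.40, 1.24 and 1.68 TPM in KO females. It rose by 0.88 ± 0.16 (limma, adjusted p = 0.00046) without overlap of the groups, but it too had passed the filter only through its KO values.

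*Col20a1* (ENSMUSG00000016356, chr2:180986535-181018363) was the only collagen of the 22 that fell. It passed the filter only through its WT values, its KO mean being 0.456 TPM, so the fall and its p-value carry the effect of that choice. It was at 1.35, 0.380 and 0.342 TPM in WT males, 2.19, 1.32 and 1.13 TPM in WT females, 0.414, 0.167 and 0.558 TPM in KO males and 0.457, 0.484 and 0.656 TPM in KO females. All KO females lay below all WT females, whereas the male groups overlapped. The difference was -0.48 ± 0.17 (limma, adjusted p = 0.028), or -0.65 after rescaling (limma, adjusted p = 0.0089). Leaving out any 1 of 5 livers brought the adjusted p of *Col20a1* to between 0.052 and 0.069: WT male replicate 1, WT female replicate 1, KO male replicate 2, KO female replicate 1 or KO female replicate 2. With both mice of the early animal number series left out it was 0.068. The other 5 FACIT genes, *Col9a1*, *Col9a2*, *Col9a3*, *Col19a1* and *Col22a1*, were below the filter, and only *Col9a3* reached above 0.1 TPM in any liver.

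The multiplexins *Col15a1* and *Col18a1* both rose, by unequal amounts, beside 50.1% of all tested genes (21.3% rescaled, where only *Col15a1* rose). *Col18a1* (ENSMUSG00000001435, chr10:77052178-77166548) was by far the most abundant collagen, at 292, 284 and 253 TPM in WT males, 207, 230 and 275 TPM in WT females, 346, 372 and 425 TPM in KO males and 283, 389 and 383 TPM in KO females. The KO female replicate 1 lay within the WT range, the other 5 KO livers lay above it, and the difference was 0.51 ± 0.11 (limma, adjusted p = 0.0019). After rescaling the *Col18a1* difference was 0.06 (limma, adjusted p = 0.77), beside a median of -0.03 over all tested genes, and its call was lost. *Col18a1* overlaps the gene *Slc19a1*. *Col15a1* (ENSMUSG00000028339, chr4:47208161-47313167) was at 3.67, 3.09 and 2.41 TPM in WT males, 2.70, 2.67 and 2.31 TPM in WT females, 8.28, 6.05 and 12.4 TPM in KO males and 9.61, 10.4 and 9.32 TPM in KO females. Its groups did not overlap, and it rose by 1.42 ± 0.15 (1.05 rescaled, limma, adjusted p = 0.00013).

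No transmembrane collagen was called higher. Of the 4, only *Col13a1* (ENSMUSG00000058806, chr10:61838236-61979108), a collagen of cell adhesion sites, was tested. It was at 1.67, 1.57 and 1.71 TPM in WT males, 2.58, 1.64 and 0.672 TPM in WT females, 0.714, 0.392 and 1.30 TPM in KO males and 3.00, 0.823 and 2.34 TPM in KO females. The KO males all lay below the WT males while the female groups overlapped, and the difference over both sexes was -0.19 ± 0.24 (limma, adjusted p = 0.53). *Col25a1* (ENSMUSG00000058897, chr3:130131501-130599877), whose shed ectodomain binds amyloid, was below the filter with its values of 0.156, 0.204 and 0.302 TPM in WT males and 0.128, 0.360 and 0.299 TPM in WT females. In KO it was at 0, 0.0282 and 0.0302 TPM in males and 0.0115, 0 and 0.0247 TPM in females. All KO livers lay below all WT livers, on 133 reads in WT and 7 in KO. Without the filter it was called lower (-0.29, limma, adjusted p = 0.00037). *Col23a1* was at 0.0493 to 0.227 TPM in WT and 0.0653 to 0.220 TPM in KO, and *Col17a1* had 22 reads in WT and 9 in KO.

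The remaining collagens were scarce. *Col7a1*, which forms the anchoring fibrils of skin, was at 0.0352 to 0.315 TPM in WT and 0.0304 to 0.184 TPM in KO. *Col28a1* had 4 reads in the WT livers and 87 in the KO livers, none of them in KO male replicate 2. *Col26a1* was listed at 0 in all 12 livers. When all 43 collagens above 0 in any library were tested with no filter on level, 22 rose, beside 38% of the 17332 genes tested that way, and 2 fell, beside 3.69%. The added calls were *Col4a6*, *Col6a6* and *Col28a1*, higher, and *Col25a1*, lower. *Col4a3bp*, the row that is no collagen, rose by 0.69 ± 0.16 (limma, adjusted p = 0.0027) and lost its call after rescaling (0.26, limma, adjusted p = 0.11).

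**Figure D4:**
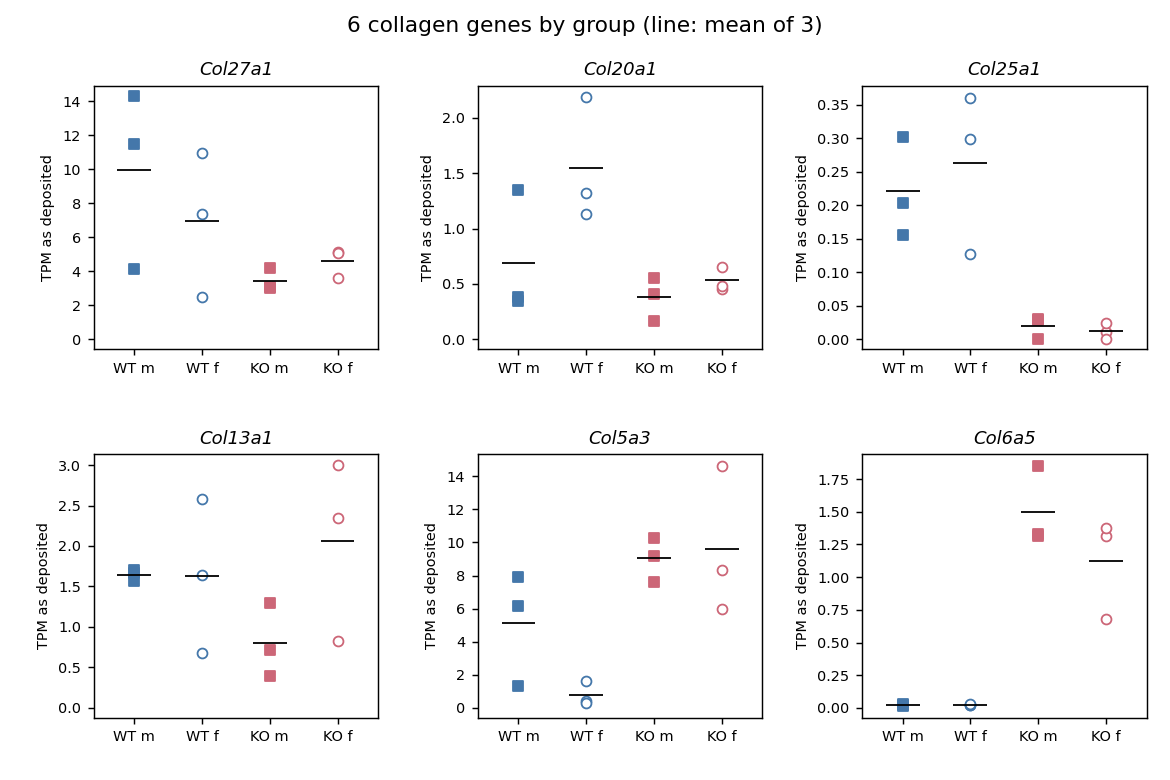
TPM as deposited of 6 collagen genes whose pattern departs from that of their class, by group, with each point 1 liver and each line the mean of 3. *Col27a1*, *Col20a1* and *Col25a1* have lower KO means, *Col13a1* is lower in KO males but not in KO females, *Col5a3* is low in the WT females and in 1 WT male, and *Col6a5* is near 0 in every WT liver.

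The authors' deposited table holds its own comparison of KO with WT for 43 of the 44 collagens. With the FDR printed there below 0.05, the authors' deposited table calls 18 collagens higher (14.9% of its 17332 genes are) and 3 lower (9.27% of its genes are). The 3 lower genes in the authors' deposited table are *Col27a1*, *Col20a1* and *Col25a1*. *Col14a1*, *Col5a3* and *Col18a1*, which rose on the deposited TPM, are not called there, and *Col18a1* has a log2 fold change of -0.20 in the authors' deposited table.

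Ratios between collagens within a library do not depend on how the libraries are scaled, and 8 of them were compared by exact permutation of genotype within sex (400 arrangements, two-sided, smallest possible p 0.005, adjusted over the 8 ratios). The *Col1a1/Col1a2* ratio lay between 0.411 and 0.832 in WT and between 1.20 and 1.45 in KO, a difference of 1.01 on the log2 scale (p = 0.005, adjusted p = 0.0067 by exact permutation). The transcript of the first chain was thus the scarcer of the pair in every WT liver and the more abundant in every KO liver. The *Col3a1/Col1a1* ratio fell by 1.44, from a median of 3.23 in WT to 1.09 in KO, with every KO liver below every WT liver (p = 0.005, adjusted p = 0.0067 by exact permutation). Type I and III genes together were 52.6% ± 13.5 of fibrillar transcripts in WT and 86.8% ± 2.51 in KO (SD, n = 6 each).

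The *Col4a1/Col4a2* ratio was 0.983 to 1.41 in WT and 1.48 to 2.34 in KO, so the neighbouring type IV genes rose unequally (0.71, exact permutation, adjusted p = 0.0067). By contrast the *Col6a1/Col6a2* ratio was 1.67 to 2.27 in WT and 1.58 to 2.49 in KO, with a difference of -0.02 (exact permutation, p = 0.88). The *Col6a3/Col6a1* ratio was higher by 0.54 in KO (exact permutation, p = 0.01, adjusted p = 0.011), but the ranges overlapped and the lowest WT value, 0.133 in WT female replicate 1, lay apart from the other 5. Without that liver the *Col6a3/Col6a1* difference was 0.30 (exact permutation, adjusted p = 0.011). Its call was lost without KO female replicate 1, 2 or 3 (exact permutation, adjusted p = 0.0743, 0.0914 and 0.08) and with a pseudocount of 1 on both genes (0.12, exact permutation, adjusted p = 0.51). The 3 other genes set against *Col1a1* rose less than it did: the ratio to *Col1a1* fell by 1.91 for *Col4a1*, by 2.40 for *Col6a1* and by 3.94 for *Col18a1*, each with no overlap (exact permutation, adjusted p = 0.0067). *Col18a1* was 58.2 to 153 times *Col1a1* in WT livers and 4.31 to 11.1 times in KO livers. *Col1a1* had the largest difference of the 22 tested collagens, so any ratio set over it was bound to fall. These falls and the changes of the *Col3a1/Col1a1* and *Col1a1/Col1a2* ratios restate the level differences and are no separate evidence.

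**Figure D5:**
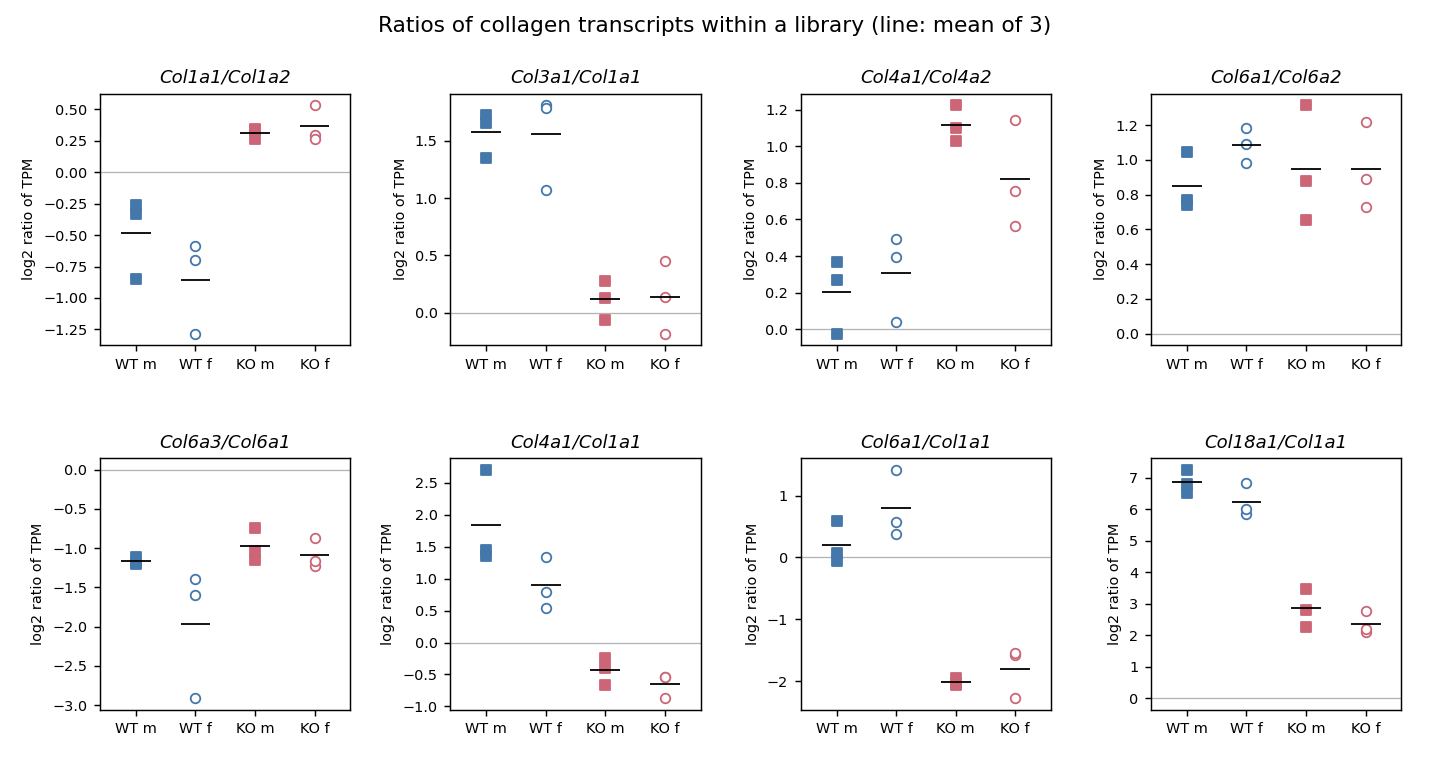
Log2 ratio of TPM between pairs of collagen genes in each liver, by group (m, male and f, female), with lines at the mean of 3. KO livers are beyond all WT livers in 6 of the 8 panels, and the *Col6a1/Col6a2* panel shows overlapping groups.

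Both sexes showed the collagen differences. In males 18 of the 22 rose (43.3% of all tested genes rose) and *Col27a1* fell (2.81% fell). The male call of *Col27a1* (limma, adjusted p = 0.042) was lost without a filter (adjusted p = 0.081) and on leaving out any 1 of 7 livers (adjusted p = 0.052 to 0.15): the 3 KO males, WT male replicate 1 or 3, WT female replicate 1 or KO female replicate 3. In females 18 rose (29.1% of all tested genes rose) and *Col20a1* fell (4.68% fell), a call lost on leaving out any 1 of the 3 KO females or WT female replicate 1 or 2 (limma, adjusted p = 0.052 to 0.13). Some rises within a sex also rested on single livers. The male rise of *Col18a1* was lost on leaving out any 1 of 5 livers (limma, adjusted p = 0.051 to 0.11), its female rise on leaving out any 1 of 4 (0.057 to 0.077), and the male rise of *Col14a1* on leaving out any 1 of 4 (0.061 to 0.11), each of them a liver of the same sex. On the rescaled values 14 rose and 2 fell in males (14.1% and 9.84% of all tested genes), *Col13a1* being the second to fall at -0.90 (limma, adjusted p = 0.041), *Col4a2* losing its male rise at 0.65 (limma, adjusted p = 0.057) and *Col12a1* at 0.59 (limma, adjusted p = 0.067), and 17 rose and 1 fell in females (15.4% and 10.6%). A test of the difference between the sexes called 0 of the 22 (0.912% of all tested genes were called), and at an unadjusted p under 0.05 it picked 2, *Col5a3* and *Col4a2*, beside 8.85% of all genes. *Col5a3* had a difference of 0.92 ± 0.45 in males, which was not called (limma, adjusted p = 0.11), and 2.55 ± 0.45 in females (interaction -1.64 ± 0.64, limma, adjusted p = 0.46). *Col14a1* was not called in females (0.43 ± 0.28, limma, adjusted p = 0.26). *Col4a2* had 1.17 ± 0.23 in males and 2.16 ± 0.23 in females (interaction -0.99 ± 0.32, limma, adjusted p = 0.32).

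Between the sexes of 1 genotype, limma called 0 collagens in WT (5.74% of all tested genes) and 0 in KO (0.0814%), with 8 (25.6% of all genes) and 5 (5.33%) at an unadjusted p under 0.05. In WT the nearest were *Col5a3*, higher in males by 1.63 ± 0.45 (limma, adjusted p = 0.054), and *Col6a1*, higher in females by 0.78 (male minus female -0.78 ± 0.23, limma, adjusted p = 0.068). *Col5a3* was the 1 collagen that passed the threshold in WT once the values were rescaled (4.32% of all tested genes did).

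One KO liver stood low. KO male replicate 2 had the lowest value of the 6 KO livers in 16 of the 19 collagens that rose, and its collagen sum of 568 TPM was the lowest of the KO livers. Its summed level was also the lowest of the KO livers in 7 of the 11 cell type marker lists described further on, among them hepatocyte (59094 TPM), stellate (61.9 TPM), myofibroblast (30.8 TPM) and macrophage (194 TPM) markers, and in 3 of the 5 lists of collagen pathway genes. Its *Yap1* value, 0.994 TPM, was the lowest of all 12 livers. Among the WT livers, female replicate 3 had the highest value in 12 of the 19. How often either liver was so placed over all tested genes was not counted. Whether these counts are particular to collagens is therefore unknown. With any single liver left out, 19 collagens still rose, in each of the 12 such fits, and 19 rose as well when the 2 mice of the early animal number series, WT female replicate 3 and KO female replicate 1, were left out together (44.4% of genes rose in that fit).

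Genes that make, process and degrade collagen were examined as lists. So that low WT values did not choose the genes, rises were counted among list genes whose WT mean reached 0.5 TPM, beside the 48.1% of all such genes that rose (18.2% on the rescaled values). Falls are beside the 4.82% of all tested genes (18% rescaled). Of 14 such genes of chain modification and folding, 10 rose (5 after rescaling), among them *Crtap*, part of the complex that hydroxylates prolines (1.68 ± 0.20), *Serpinh1*, the collagen chaperone HSP47 (1.60 ± 0.27), and *Fkbp10*, a folding isomerase (1.51 ± 0.12). *Plod2*, the telopeptide lysyl hydroxylase, was tested only because of its KO values, as was *P3h2*, and was at 0.0825 to 0.631 TPM in WT and 1.37 to 2.87 TPM in KO. Of 8 such genes of propeptide removal and cross-linking, 7 rose (7 after rescaling, with *Bmp1* then lower), led by the lysyl oxidases *Loxl2* (1.92 ± 0.19) and *Loxl1* (1.89 ± 0.22) and the procollagen peptidase *Adamts2* (1.53 ± 0.16). *Lox* and *Pcolce2* of that list were tested only because of their KO values. The median over the genes so counted was 0.55 for folding (0.14 rescaled) and 1.40 for processing (1.04 rescaled).

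Genes of collagen breakdown rose as well, in 4 of the 4 with a WT mean of at least 0.5 TPM, with a median of 2.05 (1.70 rescaled). *Mmp9* and *Mmp13* were tested only because of their KO values. The gelatinase *Mmp2* rose by 2.26 ± 0.22, the membrane collagenase *Mmp14* by 2.13 ± 0.18 and the collagen uptake receptor *Mrc2* by 1.97 ± 0.16. Among 6 collagen receptors counted in the same way 3 rose (2 after rescaling), while *Lair1* was tested only because of its KO values. *Itga10*, which passed the filter only through its WT values, was lower after rescaling. *Ddr1*, the epithelial discoidin receptor, went from 0.474 to 0.990 TPM in WT to 13.6 to 24.7 TPM in KO (3.36 ± 0.14), while *Ddr2*, its mesenchymal counterpart, did not pass the test (0.26 ± 0.12, limma, adjusted p = 0.087). Of transforming growth factor beta and platelet-derived growth factor signalling, 11 of 11 such genes rose (10 after rescaling), *Tgfb2* being tested only because of its KO values. Among them were the receptor *Tgfbr2* at 1.93 ± 0.14 and the ligand *Pdgfa* at 1.88 ± 0.18.

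Markers of several cell types moved in the same libraries, and their part in the collagen results was not tested. Rises are again counted among genes with a WT mean of at least 0.5 TPM. The stellate list had 4 of 11 genes higher and 2 lower (median 0.00). The balance turned on the rescaled values, where 1 was higher and 4 were lower (median -0.31). Its summed levels were 85.8 to 242 TPM in WT and 61.9 to 184 TPM in KO. Within it *Pdgfrb* rose (1.84 ± 0.17), *Vipr1* (-1.33 ± 0.15) and *Ecm1* (-0.92 ± 0.19) fell, and *Lrat*, the enzyme that stores vitamin A, was at 3.20 to 9.25 TPM in WT and 1.64 to 5.79 TPM in KO. The myofibroblast list had 2 of 5 higher, *Tagln* and *Postn*, which both lost their calls after rescaling, with sums of 14.1 to 33.1 TPM in WT and 30.8 to 76.6 TPM in KO. Its genes *Timp1* (3.20 ± 0.20) and *Lox* were tested only because of their KO values, whereas *Acta2*, its defining actin, did not pass (0.78 ± 0.34, limma, adjusted p = 0.065). The portal fibroblast list had 7 of 7 higher (5 after rescaling), with sums of 8.80 to 17.3 TPM in WT and 41.9 to 83.7 TPM in KO, led by *Entpd2* (2.39 ± 0.16) and the matrix gene *Dpt* (1.77 ± 0.34). The ranges of the portal fibroblast sums did not meet, while those of the stellate and myofibroblast sums overlapped with the sexes joined. Within sex the myofibroblast sums did not meet, at 14.1 to 26.7 TPM in WT and 30.8 to 48.4 TPM in KO males and 19.3 to 33.1 TPM in WT and 39.0 to 76.6 TPM in KO females. This separation rested on *Timp1*: without it, a choice made after its values were seen, the ranges met, at 13.8 to 25.9 TPM in WT and 21.4 to 36.2 TPM in KO males and 19.3 to 32.8 TPM in WT and 30.3 to 66.7 TPM in KO females. The stellate sums of KO females, 111 to 184 TPM, lay below those of WT females, 187 to 242 TPM, whereas the male ranges overlapped. Much of that sum was *Ecm1*, at 102 to 134 TPM in WT females and 36.1 to 65.2 TPM in KO females, and without it, a choice of the same kind, the female sums overlapped at 84.9 to 108 TPM in WT and 75.1 to 119 TPM in KO.

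Other cell types were read the same way. Macrophage markers rose in 7 of 7 genes (6 after rescaling), with sums of 39.8 to 127 TPM in WT and 194 to 369 TPM in KO, and *Marco* and *Trem2* led (3.49 ± 0.29 and 3.30 ± 0.22). Cholangiocyte markers were split, 3 of 5 higher and 1 lower (2 and 1 after rescaling), with sums of 37.8 to 68.4 TPM in WT and 273 to 742 TPM in KO, most of it *Spp1*, while *Krt19* did not pass and *Epcam* fell (-0.35 ± 0.13). Mesothelial markers had 1 of 3 higher (sums 2.001 to 10.5 TPM in WT and 4.32 to 16.5 TPM in KO), smooth muscle 1 of 3 (21.3 to 28.6 and 22.03 to 37.5 TPM), and vascular endothelium 3 of 6 higher and 1 lower (39.1 to 57.1 and 27.9 to 95.6 TPM). Sinusoidal endothelium had 2 of 6 lower (51.3 to 84.9 TPM in WT and 28.1 to 111 TPM in KO), lymphocyte and neutrophil markers 2 of 5 higher (1.36 to 17.0 and 9.28 to 42.9 TPM), and hepatocyte markers 1 of 6 higher and 2 lower (85783 to 110903 and 59094 to 84257 TPM). *Gpnmb* of the macrophage list, *Fbln1* of the portal fibroblast list, *Cldn7* of the cholangiocyte list and *Wt1*, *Upk1b* and *Lrrn4* of the mesothelial list were tested only because of their KO values. After rescaling, the mesothelial call was lost, 1 smooth muscle marker was higher and 1 lower, 2 vascular markers were higher and 1 lower, and 2 sinusoidal markers were lower. Both calls among the lymphocyte and neutrophil markers were lost, and of the hepatocyte markers 3 were lower and the single higher call was lost. No marker was at 0 in all 12 livers. On the deposited values the shares higher in the macrophage, portal fibroblast, cholangiocyte and vascular lists were above the 48.1% of all genes so counted, the vascular one narrowly. On the rescaled values the shares in these lists and in the smooth muscle list, where 1 of 3 was higher, were above the 18.2%. *Pdgfrb* stands in both the stellate and the growth factor list, *Lox* in the myofibroblast and cross-linking lists, and *Cd34* in the portal fibroblast and vascular lists.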

How the data were processed

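RNA of 12 mouse livers was sequenced, and the authors deposited 1 table with a TPM column per mouse, per the file headers. The submitters' processing notes name the build GRCm38 and edgeR. The aligner, annotation and use of strand are not given in the sources used here. The table also holds the authors' own fold change, log2 fold change and FDR p-value (printed to 2 decimals), per the file headers. All sample columns matched 1 sample each and 0 were unmatched. Groups were read from the sample titles, and nothing beyond separate mice tells how replicates were raised.

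From these values log2(TPM + 1) was computed (pseudocount 1), genes with a mean of at least 0.5 TPM were kept (12278), and limma 3.58.1 (R 4.3.3) served for the linear models (eBayes with trend, two-sided, Benjamini-Hochberg over all tested genes). The genotype fit used all 12 livers with sex as covariate, and the contrasts within sex, between sexes and the interaction came from 1 model of the 4 group means. The script was tested on simulated data. Ratios and Yap1 were tested by exact permutation within sex. Reads were recovered from the TPM steps to state depth and to show on how few reads scarce genes rest. They were not tested, because TPM are not counts. Positions are from GENCODE mouse release 21 (GRCm 38), matched by identifier.

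Each tested collagen is named. Values in every liver are given for the most abundant genes of each class, and for Col6a5, Col20a1 and Col25a1, which were picked after their values were seen. Up to 3 genes past the threshold with the largest difference are named from each pathway or marker list, and others were named after their values were seen. The value of 1 list gene is not reported here. The members, classes and lists were chosen with earlier results of these data known. Alternatives covered pseudocounts of 0.1 and 0.5, other filters, rescaling, the sum without the 20 most abundant genes, the animal series as covariate, no trend, and each liver left out.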

Additional observations from a re-analysis of the deposited data

Results flagged for a closer look

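In 62 sets of 6 livers (1 genotype, 1 gene or ratio), 7 had a liver far from the other 5 by Dixon's criterion, of which chance alone gives about 1 in 20 sets. In 4 of them it was KO male replicate 2, lowest of the KO livers. Its value was 26.6 TPM for Col1a2, 3.33 TPM for Col5a1, 28.3 TPM for Col4a1 and 4.01 TPM for Col6a3. WT female replicate 3 was high for Col3a1 at 14.8 TPM. The Col1a1/Col1a2 ratio was high in KO female replicate 2 at 1.45, and the Col6a3/Col6a1 ratio was low in WT female replicate 1 at 0.133. These sets join both sexes.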

How the results depend on the processing

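No paired analysis was possible because the labels carry no replicate numbers, so numbers only name livers.

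The number of rises was 19 in every setting except rescaling (17), no filter (22, from more genes tested) and a filter of 1 TPM (16, from fewer). Rises within males numbered 14 to 19 over the settings and within females 15 to 20. The single fall (Col20a1) became 2 without a filter, after rescaling and without the 20 most abundant genes, and 0 with a filter of 1 TPM. With the early series left out the count was still 1 but the gene was Col27a1 in place of Col20a1. The count ranged from 0 to 2 with 1 liver left out. Falls in males were 2 after rescaling and 0 to 1 with a liver left out. Falls in females were 0 with a pseudocount of 0.1, a filter of 1 TPM or the early series left out, 2 without a filter, and 0 to 1 with a liver left out. For the sex difference in WT, 1 collagen was higher in males with a pseudocount of 0.1 or 0.5, after rescaling, without the 20 most abundant genes, with the series covariate or the early series left out, and 0 to 1 with a liver left out. In the same comparison 1 was lower with a pseudocount of 0.1, and 0 to 2 with a liver left out. The cause of these changes was not tested.

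Some small differences changed sign. With a liver left out, Col20a1, genotype within males, ranged from -0.39 to 0.0089 (without WT male replicate 1). Col18a1, genotype within males, was -0.11 after rescaling. Col27a1, genotype within females, ranged from -0.84 to 0.046 with a liver left out (the latter without WT female replicate 2). Col13a1, genotype within females, was -0.0064 after rescaling, -0.32 without the early series and -0.083 to 0.54 with a liver left out (below 0 without WT female replicate 3 or KO female replicate 1). The ratio Col6a1/Col6a2 was 0.16 with a pseudocount of 1 and ranged from -0.11 to 0.052 with a liver left out. The ratio Col6a3/Col6a1 was 0.12 with a pseudocount of 1 (exact permutation, adjusted p = 0.51), and 0.30 to 0.68 with a liver left out, losing its call without any 1 of the KO females.

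Over all genes, 6153 rose and 592 fell in the genotype comparison, and 2612 and 2208 after rescaling. In males the counts were 5318 and 345, and 1729 and 1208 after rescaling. In females they were 3577 and 574, and 1893 and 1296. For the sex difference in WT, all tested genes called higher numbered 140 and lower 565, against 248 and 283 after rescaling, 108 and 301 with the series covariate, 120 and 338 without the early series, and 72 to 371 and 205 to 1325 with a liver left out (sex difference in WT, all tested genes called lower). The early animal series left out together was chosen after seeing the data.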
